A study of Mus musculus with 48 samples.

Results

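The response of the liver to fasting was compared between diets in mice whose hepatocytes lack p110α, and the quantity followed was the diet by fasting interaction. For each gene, the fasting response is the log2 level in fasted minus fed mice, and the interaction is the response on high fat diet (HFD) minus the response on CTRL diet. It used the 4 groups titled LKO (p110α hep-/-), with 24 of the 48 arrays of the series. The groups were CTRL fed, CTRL fasted, HFD fed and HFD fasted, each with 6 arrays of liver RNA from separate mice. All were males carrying floxed p110α alleles and an albumin-Cre transgene, so that recombination took place in hepatocytes and the other cells of the liver kept p110α. They entered the diets at 12 weeks of age, and received HFD (60% of calories from fat) or the CTRL diet for 12 weeks. Fasted mice had no food for 24 h, fed mice ate ad libitum, and all were killed at ZT16, that is 16 h after the lights came on. The 24 arrays of p110α hep+/+ littermates, which carry the floxed alleles without Cre, entered the fit and served for the comparison of the interaction between genotypes.

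The p110α protein is the catalytic subunit of PI3Kα, which relays the insulin signal in hepatocytes. During fasting insulin falls, fatty acids from adipose tissue reach the liver, and the nuclear receptor PPARα switches on fatty acid oxidation and ketogenesis, while the transcription factors SREBP-1c and ChREBP, which drive lipogenesis after a meal, become less active. A high fat diet also supplies fatty acids in the fed state. A negative interaction means that fasting raised a gene less, or lowered it more, on HFD than on CTRL diet, and a positive interaction means the reverse.

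Between 52.8% and 59.0% of probes were well above background on the 24 arrays, and no spot was saturated. Arrays of the same group correlated at 0.989 to 0.997 over all genes. The albumin, transthyretin and other hepatocyte markers (7 of 8 measured) were bright on every array, with a summed level of 20.7 to 20.8 on the log2 scale. Pik3ca, which encodes p110α, had an interaction of 0.03 ± 0.12 (SE), and its probe does not test the deletion, which removes only part of the transcript. Some arrays stood apart from their groups in a principal component analysis. Replicates 5 and 6 of CTRL fasted scored 22.9 and 21.3 on the third component against 0.0961 to 5.6 for the other 4 arrays. HFD fed replicate 3 scored -4.4 on the second component against 11.3 to 25.6, and HFD fasted replicate 4 scored -0.375 against 9.56 to 18. Among the chaperone genes below, HFD fed replicate 6 was high and HFD fasted replicate 3 was low. These 6 arrays were kept. Counts are also given without them where named, although the last 2 were picked from the chaperone genes themselves. Levels are from whole liver, in which fewer cells of a type and less RNA per cell cannot be told apart.

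The fasting response of 591 of 20486 genes differed between the diets. A gene was called when limma gave an adjusted p of at most 0.05 (Benjamini-Hochberg over all probes) and the 2 responses differed by more than 1.5-fold. The interaction was negative for 364 genes (1.78% of those tested) and positive for 227 (1.11%). Without the fold threshold 1618 genes passed. The median interaction over all genes was 0.01, and 51.6% of genes had a positive sign, a balance that the quantile normalization sets. Without the 6 arrays that stood apart 648 genes were called, of which 459 were among the 591. Each group had 3 arrays in each of the 2 washing batches. Within a batch 452 genes (batch 1) and 198 genes (batch 2) were called, of which 304 and 153 were among the 591.

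**Figure D1:**
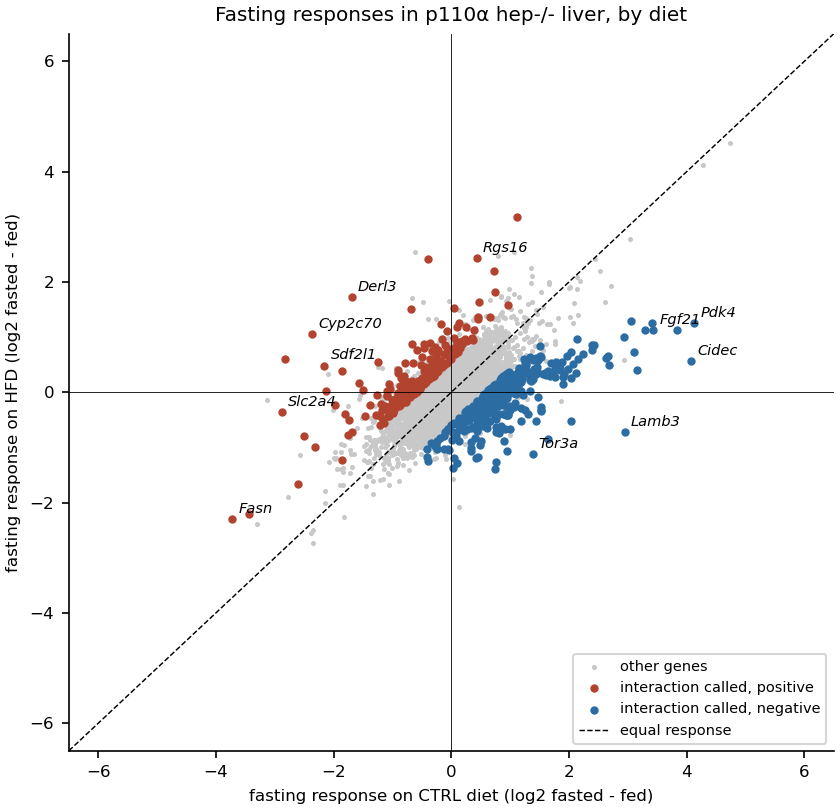
Fasting response (log2 fasted - fed) on CTRL diet (horizontal) and on HFD (vertical) in p110α hep-/- liver, 1 point per gene, with the 227 genes called with a positive interaction in red and the 364 called with a negative one in blue. The blue points lie mostly to the right of the vertical zero line and close to the horizontal one, since their median response was 0.77 on CTRL diet and -0.14 on HFD.

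Most of the negative interactions were genes called as raised by fasting on CTRL diet and not called on HFD. A response that was not called may still be a change under the thresholds, such as the 0.56 of Cidec on HFD. In this and the next paragraph, only and alone refer to calls. On CTRL diet 747 genes rose with fasting (3.65% of those tested) and 702 fell (3.43%), and on HFD 565 rose (2.76%) and 644 fell (3.14%). Of the 364 genes with a negative interaction, 204 (56%) rose on CTRL diet and were not called on HFD. A further 50 fell on HFD only, 23 rose on both diets, 13 rose on CTRL diet and fell on HFD, and 74 were called on neither diet. Of the 227 genes with a positive interaction, 94 (41.4%) fell on CTRL diet and were not called on HFD, and 55 rose on HFD only. The 13 genes that turned from a rise to a fall include Tor3a, which encodes a torsin of the endoplasmic reticulum, and Kiss1, which encodes the peptide hormone kisspeptin. Their medians in CTRL fed, CTRL fasted, HFD fed and HFD fasted mice were 8.58, 9.91, 9.45 and 8.47 for Tor3a. For Kiss1 they were 8.09, 9.64, 9.56 and 8.7. Each response shares its arrays with the interaction, so this sorting describes where a difference lies and is no further evidence for it.

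The same genes can be read as diet differences within each nutritional state. In fed mice 264 genes were higher on HFD (1.29%) and 211 lower (1.03%), and in fasted mice 188 were higher (0.918%) and 199 lower (0.971%). Among the 364 negative interactions, 146 were called for the diet in neither state, HFD raised 107 in the fed state alone, lowered 84 in the fasted state alone, did both for 26 and raised 1 in both states. Among the 227 positive interactions, 114 were called in neither state, HFD lowered 62 in the fed state alone, raised 46 in the fasted state alone, did both for 4 and raised 1 in both states. Cyp4a14, a fatty acid ω-hydroxylase, was raised in the fed state alone. Its lowest, median and highest levels were 5.8, 7.69 and 9.53 in CTRL fed mice and 8.65, 10.21 and 10.77 in HFD fed mice, and these ranges overlapped. The fasted groups had medians of 11.5 (CTRL) and 11.37 (HFD) and overlapped. Fgf21, a hormone that the liver secretes in fasting, was lowered in the fasted state alone. All 6 CTRL fasted arrays (10.48, 10.58 and 10.8) lay above all 6 HFD fasted arrays (8.39, 8.74 and 10.16), and the fed groups overlapped, with medians of 7.3 on CTRL diet and 7.84 on HFD. Lamb3, the laminin β3 chain, did both, with a difference between HFD and CTRL diet of 1.39 in fed mice and of -2.27 in fasted mice.

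Among genes called for the interaction, more responses were smaller on HFD than larger. To count this without sorting genes on either diet alone, genes were sorted by the average of the 2 fasting responses, which is nearly independent of their difference. On average over the diets 556 genes rose with fasting (2.71%) and 513 fell (2.5%). Among those that rose, the response was smaller on HFD for 104 (18.7%) and larger for 18 (3.24%), and for 434 the interaction was not called. Among those that fell, it was smaller on HFD for 43 (8.38%) and larger for 9 (1.75%). The 104 genes are 28.6% of all negative interactions, and their median response was 1.49 on CTRL diet and 0.37 on HFD. The 43 genes are 18.9% of all positive interactions, with medians of -1.28 and -0.36. Over all 556 genes that rose, called for the interaction or not, 285 had a smaller response on HFD, and the median response was 0.84 on CTRL diet and 0.79 on HFD. Over all 513 that fell it was smaller for 305, with medians of -0.87 and -0.76. The remaining 417 of the 591 genes were not called for the average response.

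**Figure D2:**
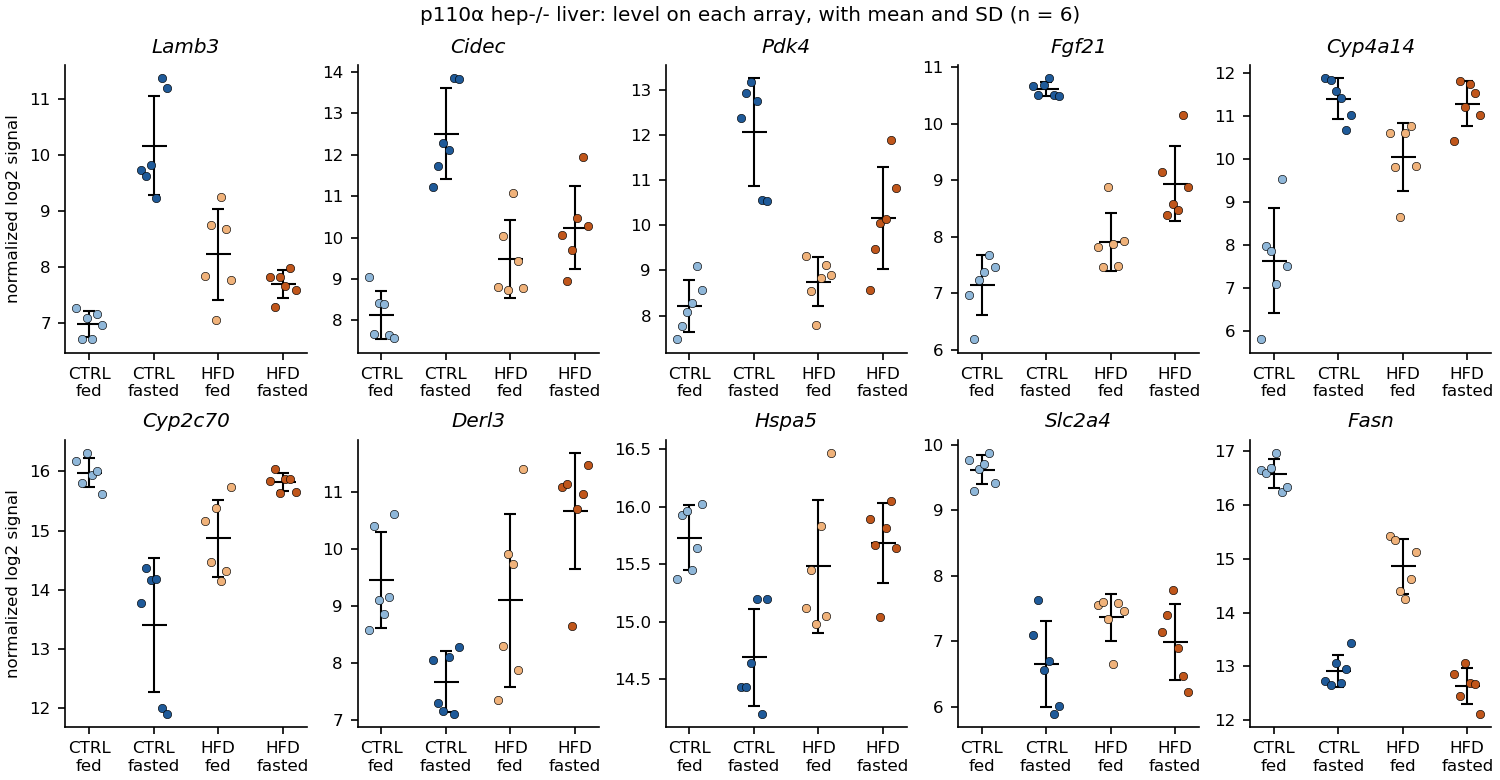
Normalized log2 signal of 10 genes on each array of the 4 groups of p110α hep-/- mice, with the mean and SD of 6 arrays (black). In CTRL fasted mice, replicates 5 and 6 (the 2 rightmost points) are the highest for Lamb3 and Cidec and the lowest for Pdk4 and Cyp2c70.

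The most negative interaction was that of Lamb3, with -3.66 ± 0.42 (SE; adjusted p = 5.9e-08). Its levels (lowest, median and highest of 6) were 6.71, 7.02 and 7.26 in CTRL fed, 9.23, 9.77 and 11.36 in CTRL fasted, 7.05, 8.26 and 9.25 in HFD fed, and 7.29, 7.74 and 7.99 in HFD fasted mice. Fed and fasted arrays did not overlap on CTRL diet, whereas they did on HFD. Cidec, which enlarges lipid droplets, followed with -3.52 ± 0.62 (adjusted p = 0.000154). It had medians of 8.03 and 12.2 in fed and fasted mice on CTRL diet, with no overlap, and of 9.11 and 10.18 on HFD, where the ranges of 8.73 to 11.09 and 8.94 to 11.95 overlapped. Pdk4, the kinase that shuts pyruvate dehydrogenase in fasting, reached 10.54, 12.57 and 13.18 in CTRL fasted and 8.57, 10.09 and 11.88 in HFD fasted mice. The fed groups had medians of 8.17 (CTRL) and 8.87 (HFD), and the interaction was -2.88 ± 0.58 (adjusted p = 0.00095). Pdk4 still rose with fasting on HFD, by 1.25, against 4.13 on CTRL diet. G0s2, the inhibitor of adipose triglyceride lipase, rose by 2.03 on CTRL diet and had a response of -0.52 on HFD, which was not called. The others among the 12 most negative were Acot2, Cyp4a14, Tor3a, Kiss1, Vnn1, Fgf21, Agpat9 and Cyp4a10, with interactions between -2.76 and -2.16.

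Replicates 5 and 6 of CTRL fasted moved several of these values, and the calls of Lamb3, Cidec and Pdk4 held without both. Lamb3 was 11.36 and 11.18 on them against 9.23 to 9.81 on the other 4 arrays, and Pdk4 was 10.56 and 10.54 against 12.38 to 13.18. Without both, the interaction was -3.33 for Lamb3, -3.13 for Cidec and -3.38 for Pdk4. Cidec was not called within washing batch 1 (-2.76, adjusted p = 0.0971) and Pdk4 not within batch 2 (-3.07, adjusted p = 0.0907). The profile of Lamb3 over the 24 arrays was most like those of Ephx2 (Pearson r = 0.953), Decr1 (0.913), Galk1 (0.906), Cidec (0.905), Acadl (0.904) and Tmem120a (0.904) among 13874 genes. These correlations describe 24 arrays that share 4 group means.

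Most PPARα targets responded less to fasting on HFD. Of 46 listed genes of PPARα, fatty acid oxidation and ketogenesis, 45 were measured, 33 were called with a negative interaction and 0 with a positive one, against 1.78% and 1.11% of all genes. All 45 had a negative sign. The median interaction of the list was -0.84, from a median response of 0.99 on CTRL diet to 0.1 on HFD, while the medians over all genes were near 0. On CTRL diet 32 of the 45 rose with fasting (3.65% of all genes did), and on HFD 9 did (2.76%). HFD raised 22 of them in fed mice (1.29% of all genes). In fasted mice it lowered 8 (0.971%) and raised 1 (0.918%). Without the 6 arrays that stood apart 35 were called, and 30 and 20 were called within washing batch 1 and 2. Genes called include enzymes of several steps, as follows.

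Entry of fatty acids into mitochondria was represented by Cpt1a, the carnitine acyltransferase of the outer membrane, with an interaction of -0.82 ± 0.14 (adjusted p = 8.43e-05), and Slc25a20, the carnitine carrier, with -1.07 ± 0.12. Cpt1a had levels of 14.02, 14.33 and 14.61 in CTRL fed and 15.23, 15.26 and 15.68 in CTRL fasted mice, and of 14.6, 14.83 and 14.98 in HFD fed and 14.83, 15.04 and 15.22 in HFD fasted mice. The medians on HFD lay between those on CTRL diet, and the HFD groups overlapped each other. In the β-oxidation spiral, the dehydrogenases Acadvl, Acadl, Acadm and Acads had interactions of -0.64, -0.88, -0.77 and -0.62, and both subunits of the trifunctional protein were called (Hadha -1.06, Hadhb -0.89). Decr1, which removes double bonds of unsaturated fatty acids, had the smallest adjusted p of the list (-1.23 ± 0.12, adjusted p = 6.12e-09). It rose by 0.99 with fasting on CTRL diet and had a response of -0.24 on HFD. Among peroxisomal enzymes, Ehhadh had -1.999 ± 0.26. Ehhadh was at 12.11, 12.33 and 12.55 in CTRL fed and 14.63, 15.0 and 15.37 in CTRL fasted mice, and at 12.71, 12.82 and 13.49 in HFD fed and 13.12, 13.55 and 14.54 in HFD fasted mice, so that the fasted groups of the 2 diets did not overlap. Bdh1, which makes the ketone body β-hydroxybutyrate, had -1.10 ± 0.16. It had responses of 0.58 on CTRL diet and -0.52 on HFD, and neither was called.

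The list also holds ω-hydroxylases and thioesterases. Cyp4a10, Cyp4a14 and Cyp4a31 had interactions of -2.16, -2.70 and -1.94, and Acot1, Acot2, Acot3 and Acot4 of -1.76, -2.76, -1.62 and -1.07. The call of Acot3 was lost in 5 of the 24 fits that left out 1 array. The Cyp4a genes, and Acot1 with Acot2, are close in sequence, so a probe of one may detect another. Cyp4a10 still rose with fasting on HFD, by 1.13, against 3.29 on CTRL diet. Vnn1, a pantetheinase, was already raised in HFD fed mice, by 2.28, and its fasted groups had nearly equal medians of 12.15 on CTRL diet and 12.14 on HFD. Ppara itself had -0.39 ± 0.11, which passed the adjusted p (0.0165) and not the fold threshold. The member nearest to no interaction was Ucp2, with -0.21 ± 0.14 (adjusted p = 0.441).

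**Figure D3:**
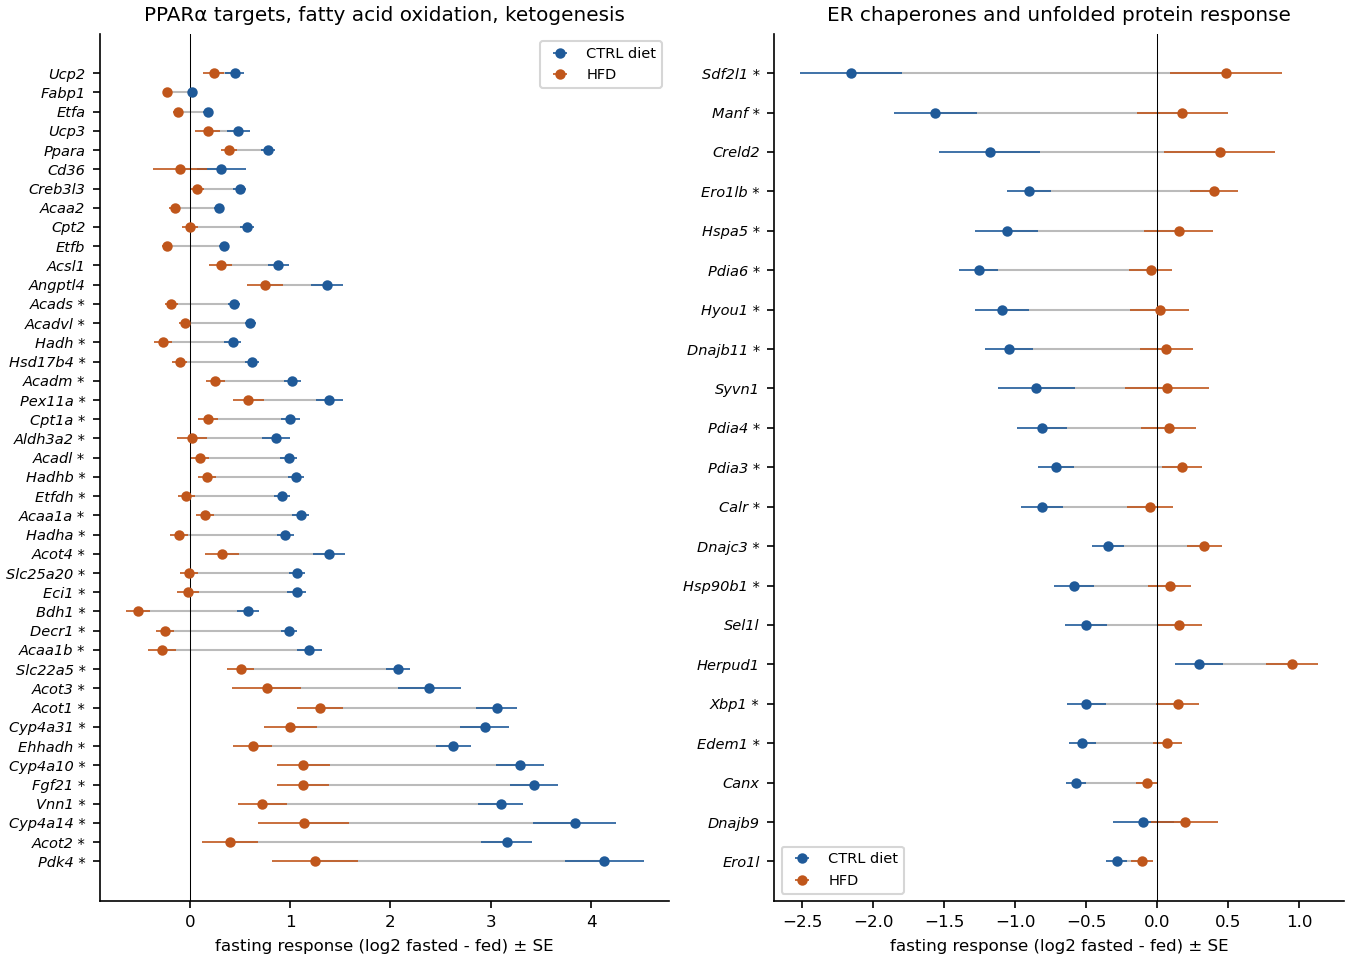
Fasting response (log2 fasted - fed) on CTRL diet (blue) and HFD (orange) with its SE for 42 measured members of the PPARα list (left) and the 21 of the chaperone list (right), in order of the interaction. Asterisks mark the 30 and 14 of them called for the interaction, and the orange points sit nearer to 0 than the blue ones for most members of both lists.

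Chaperones of the endoplasmic reticulum (ER) moved the other way. These genes fold and check secreted proteins, and the unfolded protein response raises them when the load of the ER grows. Of 21 listed genes, all measured, 14 were called with a positive interaction and 0 with a negative one, against 1.11% and 1.78% of all genes, and all 21 had a positive sign. The median interaction was 0.89, from a median fasting response of -0.81 on CTRL diet to 0.14 on HFD. On CTRL diet 12 fell with fasting (3.43% of all genes did), and on HFD 0 fell and 1 rose (3.14% and 2.76%). In the fasted state 12 were higher on HFD (0.918%), and in the fed state 1 was lower (1.03%).

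Hspa5, the ER chaperone BiP, had levels of 15.37, 15.78 and 16.02 in CTRL fed and 14.2, 14.54 and 15.2 in CTRL fasted mice, which did not overlap. On HFD it had 14.98, 15.28 and 16.47 in fed and 15.04, 15.74 and 16.05 in fasted mice, which overlapped, and the interaction was 1.21 ± 0.33 (adjusted p = 0.0158). Pdia6, a protein disulfide isomerase, had 1.21 ± 0.20 (adjusted p = 7.64e-05), with medians of 14.89 and 13.57 in fed and fasted mice on CTRL diet and 14.52 and 14.7 on HFD. The largest of the list were Sdf2l1, a partner of BiP, with 2.64 ± 0.53, and Manf, a secreted ER stress protein, with 1.74 ± 0.43. Sdf2l1 fell by 2.16 on CTRL diet and had a response of 0.49 on HFD. Derl3, which helps to remove misfolded proteins from the ER and is not in the list, had 3.41 ± 0.72 (adjusted p = 0.00151), falling by 1.69 on CTRL diet and rising by 1.72 on HFD. Its fasted groups did not overlap, with 7.12, 7.67 and 8.29 on CTRL diet and 8.64, 11.02 and 11.47 on HFD. Within the washing batches the interaction of Derl3 was 3.99 (batch 1) and 1.84 (batch 2, adjusted p = 0.573, not called). Among the other members called were Dnajb11 (1.11), Hyou1 (1.11), Pdia3 (0.89), Pdia4 (0.89), Calr (0.76), Dnajc3 (0.68), Hsp90b1 (0.67), Xbp1 (0.64) and Edem1 (0.60), and the oxidase Ero1lb (1.31). The calls of Hsp90b1, Xbp1, Edem1, Calr and Pdia4 were lost in 14, 11, 7, 4 and 3 of the 24 fits that left out 1 array.

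The chaperone result differed between washing batches. Within batch 1 the median interaction was 1.24 and 16 members were called. Within batch 2 it was 0.37, 20 of 21 members had a positive sign, 0 were called in limma and 1 passed an unadjusted p of 0.05. HFD fed replicate 6 and HFD fasted replicate 3 both lie in batch 2. Hspa5 was 16.47 on the first, against 14.98 to 15.83 on the other HFD fed arrays, and 15.04 on the second, against 15.64 to 16.05. These 2 arrays were picked for their chaperone levels, which run against the interaction, so leaving them out has to raise it, and no count without them is read here. Of the arrays picked by the principal components, leaving out CTRL fasted 5 and 6 gave 14 members called (median 0.92), and leaving out HFD fed 3 and HFD fasted 4 gave 12 (median 0.87). The cause of the difference between the batches was not tested.

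Some promoters of this list hold the ER stress element, a sequence that is known from genes of this response, so that the list is not independent of it. The element, bound by ATF6 with NF-Y, is CCAAT and CCACG spaced by 9 bases. It was looked for on both strands in 300 bases (250 before and 50 after the start) of the RefSeq promoters of GRCm38.p6, after the interaction had been seen. It occurred in 9 of the 19 list members with a promoter in the table (47.4%), in 6 of the 12 called members (50%), and in 35 of 27025 promoters of the table (0.13%). A match is a description of the sequence and no proof that the site is used. The direct repeat of AGGTCA spaced by 1 base, which PPARα binds, occurred in 0 of 34 matched promoters of the PPARα list and in 0.0444% of all, and these short windows leave out introns and distant sites. Shown are the 250 bases before the start, 5′ to 3′ on the strand of the gene and with the element in capitals, for the chaperone BiP, the isomerase Pdia6, the chaperone Hsp90b1, which has 2 elements, and the oxidase Ero1b (Ero1lb on the array). Hspa5 lies at chr2:34771840-34772089, plus strand, with the first base of the element at -65. Pdia6 lies at chr12:17266339-17266588, plus strand, with the element at -98. Hsp90b1 lies at chr10:86705445-86705694, minus strand, with elements at -212 and -107. Ero1b lies at chr13:12565633-12565882, plus strand, with the element at -201.
Hspa5: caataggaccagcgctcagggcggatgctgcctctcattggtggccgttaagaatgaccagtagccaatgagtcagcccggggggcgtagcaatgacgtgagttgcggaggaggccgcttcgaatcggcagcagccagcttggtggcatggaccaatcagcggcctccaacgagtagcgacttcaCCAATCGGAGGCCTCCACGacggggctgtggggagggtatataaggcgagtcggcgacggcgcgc
Pdia6: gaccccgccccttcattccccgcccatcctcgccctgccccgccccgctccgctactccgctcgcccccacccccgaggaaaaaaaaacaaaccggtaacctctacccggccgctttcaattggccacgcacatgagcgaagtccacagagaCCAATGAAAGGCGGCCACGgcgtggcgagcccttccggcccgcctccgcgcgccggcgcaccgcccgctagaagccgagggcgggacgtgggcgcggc
Hsp90b1: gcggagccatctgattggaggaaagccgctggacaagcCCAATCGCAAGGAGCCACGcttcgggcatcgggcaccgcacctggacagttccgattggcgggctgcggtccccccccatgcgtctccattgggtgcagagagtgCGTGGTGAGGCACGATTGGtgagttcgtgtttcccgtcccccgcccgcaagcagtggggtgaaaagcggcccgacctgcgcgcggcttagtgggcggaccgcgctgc
Ero1b: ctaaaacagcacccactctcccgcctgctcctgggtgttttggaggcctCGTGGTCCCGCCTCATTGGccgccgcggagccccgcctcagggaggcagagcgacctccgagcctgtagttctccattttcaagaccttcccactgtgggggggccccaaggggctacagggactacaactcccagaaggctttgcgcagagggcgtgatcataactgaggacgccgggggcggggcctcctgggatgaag

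Several genes of fatty acid synthesis fell less with fasting on HFD. Of 27 listed lipogenesis genes, all measured, 9 were called with a positive interaction and 2 with a negative one (1.11% and 1.78% of all genes), and the median was 0.46. On CTRL diet 19 fell with fasting (3.43% of all genes did) and on HFD 14 did (3.14%), and the median response was -1.28 and -0.73. In fed mice HFD lowered 11 of them (1.03% of all genes) and raised 0 (1.29%). In fasted mice it lowered 7 (0.971%) and raised 1 (0.918%). Fasn, fatty acid synthase, had 16.25, 16.63 and 16.98 in CTRL fed and 14.25, 14.87 and 15.42 in HFD fed mice, which did not overlap. The fasted groups overlapped at medians of 12.84 (CTRL) and 12.68 (HFD). The interaction was 1.43 ± 0.29 (adjusted p = 0.000947). Mlxipl, which encodes ChREBP, fell by 0.82 on CTRL diet and had a response of 0.23 on HFD (interaction 1.05 ± 0.14, adjusted p = 2.37e-06). Aacs, which returns ketone bodies to lipid synthesis, had 2.15 ± 0.31, with a median of 13.02 in CTRL fed mice and of 10.9 to 11.28 in the other groups. Srebf1, which encodes SREBP-1, had 0.95 ± 0.31 (adjusted p = 0.0481), a call that was lost in 15 of the 24 fits that left out 1 array.

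Further members called positive were Acaca (0.61), Mid1ip1 (1.24), Pnpla3 and Pnpla5. Pnpla3, a lipid droplet protein, and Pnpla5 were not well above background on any fasted array, so no size of their interactions is given. Pnpla3 was at least 3.47-fold higher in fed than fasted mice on CTRL diet and at least 1.17-fold higher on HFD, where 4 of the 6 fed arrays measured it. For Pnpla5 the bounds were 5.27-fold and 1.63-fold. The 2 negative members make and extend polyunsaturated fatty acids. Elovl5 had -1.38 ± 0.26, with medians of 13.43, 13.44 and 13.74 in CTRL fed, CTRL fasted and HFD fed mice and 12.31 in HFD fasted mice. Fads2 had -0.74 ± 0.24, with an adjusted p of 0.049, a call that was lost in 15 of 24 such fits and in the deposited values. The calls of Acaca and Mid1ip1 were lost in 10 and 2. Within the washing batches 6 (batch 1) and 3 (batch 2) members were called positive, and without the 6 arrays that stood apart 6. Members called negative numbered 0, 0 and 1, and the list median was 0.26, 0.57 and 0.25.

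Cyp2c70, the hydroxylase that makes muricholic acids in mice, had one of the most positive interactions. Its levels were 15.62, 15.98 and 16.32 in CTRL fed and 11.9, 13.97 and 14.36 in CTRL fasted mice, with no overlap. On HFD they were 14.15, 14.82 and 15.73 in fed and 15.63, 15.86 and 16.04 in fasted mice, so that all fasted arrays on HFD lay above all fasted arrays on CTRL diet. It fell by 2.36 on CTRL diet and rose by 1.06 on HFD, an interaction of 3.42 ± 0.43 (adjusted p = 3.5e-07). The lowest of the CTRL fasted arrays were replicates 5 and 6, and without them the interaction was 2.96 (adjusted p = 4.89e-08). Within washing batch 1 it was 3.98 (adjusted p = 0.000447), and within batch 2 it was 2.63 (adjusted p = 0.051), which was not called.

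Slc2a4, Serpina4-ps1 and Rgs16 differed from it in shape. Slc2a4, the glucose transporter GLUT4, stood at 9.3, 9.67 and 9.88 in CTRL fed mice and was lower in the 3 other groups, with medians of 6.63 (CTRL fasted), 7.51 (HFD fed) and 7.02 (HFD fasted). The interaction was 2.52 ± 0.31 (adjusted p = 2.25e-07), and the fed groups of the 2 diets did not overlap. Serpina4-ps1, a serpin pseudogene, was lower on HFD in fed mice, with a difference of -3.78, and rose by 2.42 with fasting on HFD. Its interaction of 2.81 ± 0.87 (adjusted p = 0.0393) was lost in 13 of 24 fits that left out 1 array. Rgs16, a regulator of G protein signalling, rose by 2.43 on HFD and had a response of 0.43 on CTRL diet. Its call (1.99 ± 0.64, adjusted p = 0.0482) was lost in 17 such fits. Serpina9, a serpin, had 2.24 ± 0.55.

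**Figure D4:**
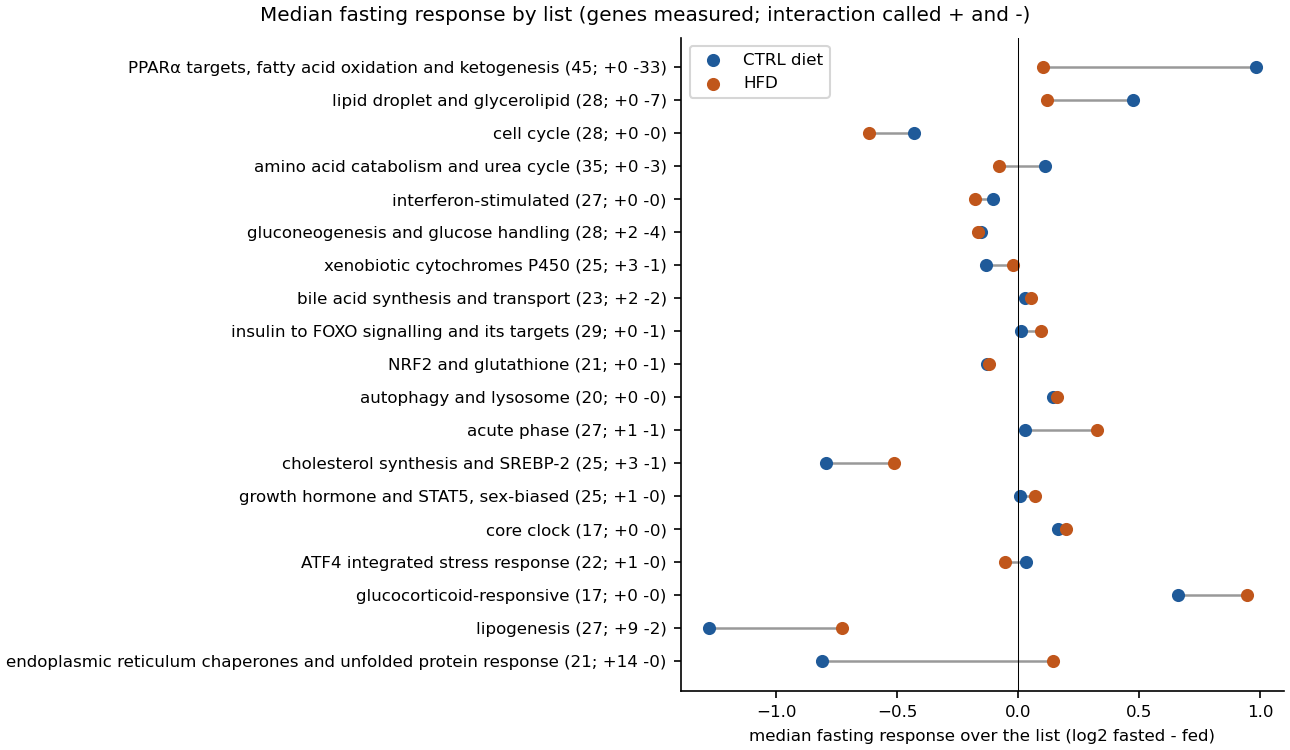
Median fasting response (log2 fasted - fed) on CTRL diet (blue) and HFD (orange) over the measured genes of 19 lists. Brackets give the number of genes measured and the numbers called with a positive and a negative interaction, and the widest gaps are those of the PPARα list (0.99 and 0.10) and the chaperone list (-0.81 and 0.14).

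Lipid droplet genes followed the PPARα targets in part. Of 28 genes measured, 7 were called, all negative (1.78% of all genes), with a median of -0.23 over the list. They were Cidec, G0s2, Agpat9, Plin2 (-1.71 ± 0.27), Hilpda (-1.40 ± 0.20), Fitm1 (-1.13 ± 0.27) and Fitm2 (-0.64 ± 0.17), whose call was lost in 4 of the 24 fits that left out 1 array. Plin2 coats lipid droplets. It had 13.56, 14.26 and 14.57 in CTRL fed and 15.12, 15.46 and 15.88 in CTRL fasted mice, which did not overlap, and medians of 14.8 and 14.38 in fed and fasted mice on HFD. Agpat9, a glycerol-3-phosphate acyltransferase, had 7.46, 7.74 and 8.36 in CTRL fed mice and medians of 10.53, 10.45 and 11.08 in the other groups, so that only CTRL fed mice were low. Without the 6 arrays that stood apart 11 members were called negative and 1 positive. Within washing batch 1, 4 were called negative and 0 positive, and within batch 2, 5 negative and 1 positive.

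Of 25 measured genes of cholesterol synthesis 3 were called positive and 1 negative, against 1.11% and 1.78% of all genes, with a list median of 0.13. The 3 positive members included Mvd, a decarboxylase of the mevalonate pathway (1.24 ± 0.37), and Insig1, which retains SREBP in the ER (0.96 ± 0.23), and Hsd17b7 (-0.98 ± 0.15) was negative. On CTRL diet 15 members fell with fasting (3.43% of all genes did), and on HFD 10 (3.14%). In gluconeogenesis and glucose handling, 2 of 28 were positive, among them the glycogen branching enzyme Gbe1 with 0.76, and 4 were negative. G6pc, glucose-6-phosphatase, fell by 1.00 with fasting on HFD and had a response of 0.34 on CTRL diet, an interaction of -1.34 ± 0.31 (adjusted p = 0.00437). Its medians were 15.09, 15.49, 15.15 and 14.31 in CTRL fed, CTRL fasted, HFD fed and HFD fasted mice. Ldha, lactate dehydrogenase A, had -0.97 ± 0.10 (adjusted p = 1.23e-08), Got1 -1.13 ± 0.35 and the coactivator Ppargc1a -0.71 ± 0.22. The calls of Got1, Ppargc1a and Mvd were lost in 12, 8 and 6 of the 24 fits that left out 1 array. Pck1, the gluconeogenic carboxykinase, had -0.29 ± 0.31 and was not called (adjusted p = 0.649).

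Insulin signalling was described by 29 measured genes, from the insulin receptor to FOXO1 and its targets. Of these 1 was called (2.88% of all genes tested were), the receptor substrate Irs1 with -0.60 ± 0.15 (adjusted p = 0.00978), and the list median was 0.05. The call of Irs1 was lost in 9 of the 24 fits that left out 1 array, without array weights, without the filter on dim probes and with slide as a term. Irs1 medians were 10.36 and 10.51 in fed and fasted mice on CTRL diet and 10.49 and 10.27 on HFD, and neither response was called. The lists of the core clock (17 genes measured), interferon-stimulated genes (27), the cell cycle (28), glucocorticoid-responsive genes (17) and autophagy and lysosome (20) had 0 calls in limma. At an unadjusted p of 0.05, 2, 1, 0, 4 and 5 of their members were positive and 0, 3, 3, 0 and 2 negative. Over all 20486 genes 11.2% were positive and 10.2% negative at this p, which is the background of such counts. Fasting responses themselves were present in some of them. In the cell cycle list 12 members fell on CTRL diet (3.43% of all genes did) and 15 on HFD (3.14%). The nearest to a call were Cry2 (0.25, adjusted p = 0.133) and Per2 (0.32, 0.191) of the clock, and Dhx58 (-0.55, 0.0222), Tyms (-0.48, 0.017), Nr3c1 (0.24, 0.0492) and Wipi1 (0.56, 0.00587) of the other 4 lists, which passed the adjusted p and not the fold threshold.

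Scattered members of the other lists were called. In bile acid metabolism (23 measured), Cyp27a1, which starts the alternative pathway of synthesis (1.00 ± 0.17), and the bile salt export pump Abcb11 (0.84 ± 0.21) were positive, and the phospholipid exporter Abcb4 (-1.05 ± 0.12, adjusted p = 3.93e-08) and the 12α-hydroxylase Cyp8b1 (-1.39 ± 0.37) were negative. Cyp7a1, the rate-limiting enzyme of bile acid synthesis, had 1.51 ± 0.59 and was not called (adjusted p = 0.117). Among 25 xenobiotic cytochromes P450, Cyp2c70, Cyp1a2 (0.87) and Cyp2f2 (0.80) were positive and Cyp3a44 negative. Cyp3a44 was well above background on all 6 CTRL fasted arrays and on 1, 0 and 1 of 6 in CTRL fed, HFD fed and HFD fasted mice, so no size is given. In amino acid catabolism and the urea cycle (35 measured) 3 were negative, Got1, Oat (-1.06) and Agxt (-0.91), and 0 positive, with 11 negative and 3 positive at an unadjusted p of 0.05, which 10.2% and 11.2% of all genes passed. The ATF4 list (22 measured) had Nupr1 (0.78) called, the growth hormone and STAT5 list (25) had 1 positive member, the acute phase list (27) had Orm3 (1.25) and Il1rn (-1.16), and the NRF2 list (21) had Hmox1 (-0.71). With 2.88% of all genes called (1.11% positive and 1.78% negative), 1 or 2 calls in lists of this size lie near the background and are no result about the lists. The calls of Nupr1 and Orm3 were lost in 14 and 13 of the 24 fits that left out 1 array, and that of Nupr1 also with slide or washing batch as a term.

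Markers of other liver and blood cells were counted in the same way. For Kupffer cells and macrophages (13 of 14 measured), stellate cells (11 of 11), sinusoidal endothelial cells (8 of 8), cholangiocytes (7 of 8), lymphocytes (9 of 12), neutrophils (6 of 7), adipocytes (6 of 7), erythroid cells (6 of 8) and hepatocytes (7 of 8), limma called 0 for the interaction. At an unadjusted p of 0.05, 3 erythroid, 2 hepatocyte, 2 cholangiocyte and 1 neutrophil markers were positive, and 2 stellate, 2 adipocyte and 1 neutrophil markers negative, against 11.2% and 10.2% of all genes. The erythroid markers had the direction of the chaperones, with a median interaction of 0.77 and a positive sign for all 6 measured. With fasting 5 of them fell on CTRL diet (3.43% of all genes did) and 0 on HFD (3.14%). In fasted mice 5 of them were higher on HFD than on CTRL diet (0.918% of all genes). Their summed level was 17.59 to 18.48 in CTRL fasted, 18.1 to 19.03 in CTRL fed, 18.43 to 19.36 in HFD fed and 17.75 to 19.48 in HFD fasted mice. Of 5 measured exocrine pancreas markers, Cela2a (1.47 ± 0.31) and Amy2a5 (0.64 ± 0.16) were called positive, against 1.11% of all genes. The other 3 had a negative sign, and the median interaction of the list was -0.08. The call of Amy2a5 was lost in 3 of the 24 fits that left out 1 array. The summed level of the list was 13.4 to 13.7, 12.8 to 13.2, 13.1 to 13.9 and 12.9 to 13.3 in CTRL fed, CTRL fasted, HFD fed and HFD fasted mice. Amy2a5 has near-identical relatives, among them the amylase of liver. The part of these cells in the chaperone result was not tested.

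The last comparison asked whether the interaction differed from that of p110α hep+/+ littermates, whose arrays are separate. Signs were mostly shared among the genes called, and the share of equal signs over all genes was not counted. Of the 364 negative interactions, 322 (88.5%) were also negative in the littermates, with median interactions of -0.87 without and -0.36 with p110α, and of the 227 positive ones 190 (83.7%) were also positive, with medians of 0.75 and 0.25. Genes were chosen on p110α hep-/- arrays, so a smaller median in the other genotype is not by itself a difference. The negative calls of p110α hep+/+ mice numbered 122, and 61 were shared, which is 16.8% of the 364 and 50% of the 122. The positive calls numbered 61, and 12 were shared, which is 5.29% of the 227 and 19.7% of the 61. Both directions together, 0.893% of all genes were called in p110α hep+/+ mice. Fgf21 had almost the same interaction in both, -2.30 without p110α and -2.36 with it, a difference of 0.05 (adjusted p = 0.976).

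The difference between the genotypes was called for 71 genes, 39 with a more negative (0.19%) and 32 with a more positive interaction (0.156%) in p110α hep-/- mice. The 39 include a predicted transcript with interactions of -1.80 without and 1.99 with p110α, close to those of Fabp5 below. The same signal may thus be counted more than once. Of the 39, 33 were also among the 364, and of the 32, 10 were called for the interaction in p110α hep-/- mice. The count was not stable. It was 23 without HFD fed replicate 2, 30 without HFD fasted replicate 3, 33, 37 and 44 without CTRL fed replicates 3, 5 and 6, 35 and 45 without HFD fed replicates 5 and 1, 105 without HFD fed replicate 3, 8 without array weights, and 0 in limma within either washing batch, where 1395 (batch 1) and 1995 (batch 2) genes passed an unadjusted p of 0.05. Of the PPARα list 4 members were among them, Decr1 (-0.72), Slc25a20 (-0.69), Hadha (-0.75) and Acaa1a (-0.71), and of the chaperone list 0 (its members lay between 0.15 and 1.58 where called for the interaction).

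**Figure D5:**
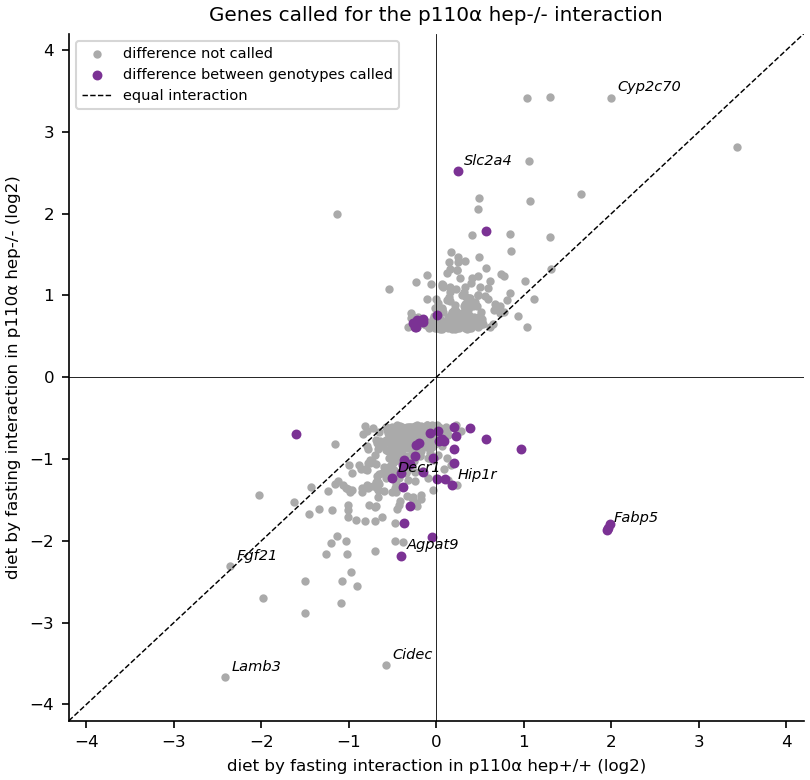
Diet by fasting interaction (log2) in p110α hep+/+ mice (horizontal) and p110α hep-/- mice (vertical) for the 591 genes called in the latter, with the genes whose difference between genotypes was called in purple. Fabp5 (1.96 and -1.85) lies far from the line of equal interaction, and Fgf21 (-2.36 and -2.30) lies on it.

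Fabp5, a fatty acid binding protein, was among the genes that differed most. Its interaction was -1.85 ± 0.42 in p110α hep-/- mice and 1.96 ± 0.39 in p110α hep+/+ mice, a difference of -3.81 ± 0.58 (adjusted p = 0.000286). In p110α hep-/- mice the medians were 10.83 and 12.37 in fed and fasted mice on CTRL diet and 11.45 and 11.24 on HFD. In p110α hep+/+ mice they were 13.0 and 10.57 on CTRL diet and 10.92 and 10.32 on HFD. The groups of fed and fasted mice on CTRL diet did not overlap in either genotype, and fasting raised the level in one and lowered it in the other. Within the washing batches the difference was -4.05 and -3.41. Slc2a4 differed by 2.28 ± 0.42 (adjusted p = 0.00779). In fed mice its medians were 9.67 on CTRL diet and 7.51 on HFD without hepatocyte p110α, and 9.72 and 9.38 with it. Hip1r, which binds clathrin and actin, differed by -1.50 ± 0.22 (adjusted p = 0.000286). All 6 CTRL fasted arrays of p110α hep-/- mice (8.68 to 8.94) lay above the other 3 groups, whereas the 4 medians of p110α hep+/+ mice were 7.57 to 7.81. Agpat9 differed by -1.77 ± 0.43 (adjusted p = 0.0477), a call that was lost in 14 of the 24 fits that left out 1 array and in 10 of 18 other settings. Oplah, 5-oxoprolinase (-0.81), Ccdc163 (0.59), the autophagy kinase Ulk1 (0.91) and Heca (0.78) also had adjusted p-values below that of Agpat9. Of these, Ccdc163, Ulk1 and Heca were not called for the interaction in p110α hep-/- mice (0.32, 0.27 and 0.26). Their interactions in p110α hep+/+ mice were -0.27, -0.64 and -0.52.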

How the data were processed

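Liver RNA was measured on 48 one-colour Agilent mouse arrays, 6 per group. Genotype, diet, nutritional state, replicate and washing batch come from the labels. The deposited scanner files, made by the authors with Agilent Feature Extraction, give the median pixel intensity of each spot with no normalization. A deposited table holds log2 values that the authors filtered, corrected for washing batch and quantile normalized, and it served as an alternative (30762 of its 32437 probes were kept here, with column medians of 7.68). The filter behind it is not given in the sources used here.

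Control spots were left out (59305 of 62976 remained), outlier spots were set to missing (95 to 145 on the 24 arrays) and spots of a probe were averaged on the log2 scale. Probes well above background on at least 5 of 6 arrays of at least 1 of the 8 groups were kept (30793 of 56605 probes, 20486 genes). The washing batch was removed with the group means protected, arrays were quantile normalized, and limma 3.58.1 (R 4.3.3, statmod 1.5.0) was fitted on all 48 arrays with array weights. P-values were adjusted over all probes kept. A gene is its brightest probe, named by the symbol in the scanner files. Counts of genes are counts of such names, predicted transcripts included, and different names may measure the same transcript. Each array is 1 mouse, and precision is limited by the 6 arrays of a group. Fits were tested on simulated data.

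Genes named are the 12 most positive and 12 most negative interactions, passing over 130 predicted transcripts, the called members of 19 gene lists and 10 marker lists or else those with the smallest p, Pik3ca, the 6 with the smallest adjusted p for the difference between genotypes, and the genes most like Lamb3. Some members and results that this rule names are not reported here. The comparison, the lists and the thresholds were chosen with earlier results of these data known. The alternatives were other signals, scalings, filters, batch terms, weights and thresholds, single batches, and leaving out each of the 24 arrays. Leaving out the arrays that stood apart together, and the ER stress element, were chosen after seeing the data. Equal replicate numbers did not deviate together (correlations of -0.128 to 0.153, over 0.1 in 5 of 36 pairs), so samples were not paired.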

Additional observations from a re-analysis of the deposited data

Results flagged for a closer look

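Single arrays lay far from the other 5 of their group for 26 levels of named genes, by Dixon's test on the gap to the nearest array. For genes named by size or by the difference between genotypes it was 6 of 116 groups (5.17%), and for other called list members 20 of 288 (6.94%), where chance gives about 1 in 20. HFD fed replicate 3 had 8 of them. It was low for Decr1 (15.23), Slc25a20 (10.39), Fitm1 (7.58), Fitm2 (7.97), Cyp8b1 (8.02) and Orm3 (7.86) and high for Fgf21 (8.89) and Fads2 (13.49). HFD fed replicate 6 had 7. It was high for Sdf2l1 (12.27), Pdia6 (15.36), Pdia3 (13.22), Dnajc3 (11.87), Pdia4 (12.26), Hsp90b1 (16.1) and Mvd (9.18). HFD fasted replicate 3 was low for Derl3 (8.64), Pdia6 (13.8) and Hsp90b1 (14.9). The others were Elovl5 (13.08) and Hilpda (9.69) on HFD fasted replicate 5, Slc2a4 (6.66) on HFD fed replicate 4, Mlxipl (14.07) and Cyp3a44 (6.6) on CTRL fasted replicate 6, Rgs16 (14.14) on CTRL fasted replicate 3, Acaca (13.67) on CTRL fed replicate 4 and Pik3ca (13.02) on CTRL fed replicate 2.

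The interaction differed between p110α hep-/- and p110α hep+/+ mice for 71 genes by limma's test of the difference. Among named genes, the difference was 2.28 for Slc2a4, -1.77 for Agpat9, -3.81 for Fabp5, -1.50 for Hip1r, 0.59 for Ccdc163, -0.81 for Oplah, 0.91 for Ulk1, 0.78 for Heca, -0.72 for Decr1, -0.69 for Slc25a20, -0.75 for Hadha, -0.71 for Acaa1a and -0.94 for Hsd17b7.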

How the results depend on the processing

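No named interaction that was called changed sign under any alternative that was run. Without the fold threshold 1618 genes passed for the interaction, and 7260, 5843 and 8888 for the fasting response on CTRL diet, on HFD and on average. The processed signal gave 2361, 1824 and 1869 for these 3 responses. Within washing batch 2 the interaction was called for 198 genes. Leaving out 1 array gave 499 to 654 genes for the interaction. The difference between genotypes (71 genes) was the count that moved most, with 10 at an adjusted p of 0.01, 8 without the filter on dim probes, 20 without batch correction, 8 without array weights, 0 within each batch, 23 to 105 on leaving out 1 array, 159 without HFD fed 3 and HFD fasted 4, 46 without HFD fed 6 and HFD fasted 3, and 113 without all 6 arrays that stood apart. The cause was not tested, except that single batches hold fewer arrays. With the replicate number as a block, 619 genes were called for the interaction and 51 for the difference between genotypes. Edem1, Nupr1, Ppargc1a, Serpina4-ps1 and Xbp1 were not called in that fit. The fit on the 24 arrays alone (567 genes) gives no value for that difference. Many spots lie near the background, and 11 of the 591 genes were dim on all arrays of at least 1 group.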
